A study of Mus musculus with 15 samples.

Results

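The genes of the AP-1 transcription factors were followed in the uterus of ovariectomized mice after a single injection of estradiol (E2) or estriol (E3). The 8 members were Fos, Fosb, Fosl1, Fosl2, Jun, Junb, Jund and Atf3, taken as every probe whose gene name on the array equals the member's symbol. That rule found 7 members by exact name. Jund stands on the array under its older symbol, Jund1, and was matched through its RefSeq transcript. The 8 members, of 27962 gene names on the array, have 10 of the 41174 probes on the array, and all 10 probes were among the 34776 that were tested. Each member is described on its brightest probe, and the second probes of Fosl2 and Junb are given beside it.

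AP-1 is a dimer of basic leucine zipper proteins in which a Fos family protein pairs with a Jun family protein, or Jun family proteins pair with each other. Fos proteins cannot bind DNA without a partner, whereas Jun proteins can, and Atf3 is a stress-responsive relative that pairs with Jun proteins. Several of their genes, Fos among them, are classical immediate-early genes, transcribed within minutes of a stimulus from factors already present in the cell, and uterine induction of Fos and Jun by estrogen is long known. Estrogen receptor alpha can also regulate genes without contacting DNA itself, tethered to AP-1.

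The samples were 15 uteri on one-color arrays, 3 in each of 5 groups. All mice were adult females of at least 10 weeks, ovariectomized and rested for 10 to 14 days, and injected intraperitoneally with 100 µl of vehicle, alone or with 250 ng of hormone in it. The vehicle is saline in the labels and saline with a little ethanol in the methods. The groups were saline at 24 hr, E2 at 2 hr, E3 at 2 hr, E2 at 24 hr and E3 at 24 hr. The saline, E3 and 24 hr E2 mice were of strain C57bl6/J. The 2 hr E2 mice were C57bl6/Jx129 with a wild-type Esr1 genotype, and their arrays lay on slides of their own, read in the other of 2 scanner sessions, so that treatment, strain, slide and session cannot be told apart there. The 24 hr E2 arrays lay on 2 slides and the 24 hr E3 arrays on 1, none shared with another group. Slide and treatment therefore cannot be told apart at 24 hr, for either hormone against saline or between the hormones. No saline array at 2 hr was analysed here, so both 2 hr groups were set against saline at 24 hr. In those comparisons the hormone and the time since the injection cannot be told apart. The labels describe each uterus as extracted singly while the methods speak of pooled tissue, and p-values then measure the spread between these samples only. Because uteri were used whole, more cells of a type and more RNA per cell cannot be told apart.

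Values are processed signals on a log2 scale, set relative to the 75th percentile of the same array, so that 0 is that percentile. Levels are compared within a probe and not between probes, except that Fosl1 is set beside the lowest well-measured level of the arrays. A probe was called changed at p below 0.001 and at least 2-fold in limma, with Benjamini-Hochberg adjusted p over all probes given beside it. That percentile lay between 2990.67 and 4421.59 intensity units, and 77.8% to 81.8% of probes were well above background on an array. All 10 member probes were well above background on all 15 arrays, and 0 of their spots were saturated. The 8 epithelial, 8 stromal and 6 smooth muscle markers of uterus were well above background on every array. In limma 3 of the 8 stromal markers were called lower than saline at 2 hr of E2 and 4 at 2 hr of E3, and 1 was called higher at 24 hr of each hormone. Of the 6 smooth muscle markers 1 was called higher at 24 hr of E2. Over all probes 10.5% were called lower at 2 hr of E2 and 9.1% at 2 hr of E3. At 24 hr 6.91% were called higher on E2 and 1.84% on E3. Of the 8 epithelial markers 1 was called lower at 2 hr of E2, and 4 were called higher at 24 hr of E2 and 1 at 24 hr of E3. Their summed level was 6.26 to 6.72 on saline, 5.70 to 6.09 at 2 hr of E2, 5.83 to 6.25 at 2 hr of E3, 7.30 to 7.39 at 24 hr of E2 and 6.95 to 7.06 at 24 hr of E3. Their part in the member values was not tested. Transcripts of immune cells and of other organs were also present. The summed level of 6 immune genes was 2.29 to 3.74 on saline, 1.77 to 2.53 at 2 hr of E2 and 2.73 to 3.38 at 24 hr of E2. It was 2.52 to 4.55 at 2 hr of E3 and 2.65 to 5.07 at 24 hr of E3, with replicate 3 highest at both times. Of these 6 genes 0 were called in any comparison. The summed level of 6 skeletal muscle genes was 1.83 to 1.96 on saline, 3.03 to 3.47 at 24 hr of E2 and 2.46 to 3.06 at 24 hr of E3. In limma 2 of these 6 were called lower at 2 hr of E2 and 2 higher at 24 hr of E2. The summed level of 7 fat genes was 4.23 to 6.61 on saline and 3.75 to 4.37 at 24 hr of E2, with a median log2 difference of -1.83 there, and 0 of the 7 were called. The summed level of 8 liver genes was 2.40 to 4.31 on the saline arrays, 0.37 to 1.73 at 2 hr of E3, -4.89 to -4.52 at 2 hr of E2 and between -2.02 and -0.97 at 24 hr. The summed level of 8 pancreas genes lay above 0 on 4 arrays, replicates 2 and 3 of E3 at 2 hr and of E2 at 24 hr, and reached 9.25. The part of these transcripts in the results was not tested beyond leaving out those 4 arrays, or the 2 of them highest in pancreas transcripts.

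The regulatory sequence before 3 of these genes is shown because they differ most in how they behaved: Fos with the greatest change at 2 hr, and Jun and Atf3, with the largest negative differences from saline at 24 hr of E2. Each is the 250 bases before the RefSeq start in build GRCm38.p6, read 5′ to 3′ on the gene's own strand: Fos at chr12:85473640-85473889 (plus strand), Jun at chr4:95052223-95052472 (minus strand) and Atf3 at chr1:191183334-191183583 (minus strand). Capitals mark AP-1 or cAMP response element letters.
Fos: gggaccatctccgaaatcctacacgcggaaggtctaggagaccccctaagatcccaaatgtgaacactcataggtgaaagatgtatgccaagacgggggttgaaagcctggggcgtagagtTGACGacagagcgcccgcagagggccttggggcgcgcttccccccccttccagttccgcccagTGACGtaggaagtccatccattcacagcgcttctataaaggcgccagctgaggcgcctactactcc
Jun: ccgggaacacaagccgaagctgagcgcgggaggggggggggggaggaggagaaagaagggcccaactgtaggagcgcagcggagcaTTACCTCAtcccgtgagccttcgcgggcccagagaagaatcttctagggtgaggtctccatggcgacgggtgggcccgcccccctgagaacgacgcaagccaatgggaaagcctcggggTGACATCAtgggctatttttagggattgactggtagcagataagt
Atf3: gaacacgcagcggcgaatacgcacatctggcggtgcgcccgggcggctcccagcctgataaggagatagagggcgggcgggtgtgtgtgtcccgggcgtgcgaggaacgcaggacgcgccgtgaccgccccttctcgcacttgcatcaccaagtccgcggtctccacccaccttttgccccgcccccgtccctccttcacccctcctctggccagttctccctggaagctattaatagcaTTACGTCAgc
The letters searched, on both strands, were TGACTCA, TGACGTCA, TTACGTCA, TGACATCA, TTACCTCA and TGACG, which lies within TGACGTCA and, read on the other strand, within TTACGTCA. The palindromic consensus estrogen response element, the CArG box, TATAA and GGGCGG were also searched. Of the 8 members, 7 have a sequence in the table. Jun held TGACATCA from position -45 and TTACCTCA from position -164, counted back from the start, letters found before 2.93% and 0.728% of the 32851 starts in the table. Atf3 held TTACGTCA from position -10, found before 0.448% of starts. Fos held TGACG from positions -129 and -66, and Fosb, Junb and Atf3 each held it once, the last within TTACGTCA. It lay at least once before 17.8% of all starts. GGGCGG lay in the windows of Fos, Fosb, Fosl2, Jun and Atf3, with 5 copies in Atf3, and before 32.7% of all starts. TATAA lay in that of Fos from position -33, and before 22.8% of all starts. No window of the 7 held TGACTCA, TGACGTCA, the estrogen response element or a CArG box, which says only that those letters are not within 250 bases.

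At 2 hr of E2, 7 of the 8 members were called higher than saline, where 10.7% of all probes were called higher and 10.5% lower. At 2 hr of E3 the same count, 7 of 8, was called higher, against 4.68% of probes higher and 9.1% lower. The median log2 difference of the members was 2.48 for E2 and 2.23 for E3, beside -0.07 and -0.11 over all probes tested. The members were chosen with these results known, and both comparisons share the saline arrays. Jun was the member not called at 2 hr with either hormone. The summed level of 5 heat shock genes, a stress sign, was 7.66 to 7.90 on the 2 hr E2 arrays, 6.99 to 7.05 at 2 hr of E3 and 6.39 to 6.71 on saline. In limma 4 of these 5 genes were called higher at 2 hr of E2 and 1 at 2 hr of E3, and their part in the member values was not tested.

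**Figure D1:**
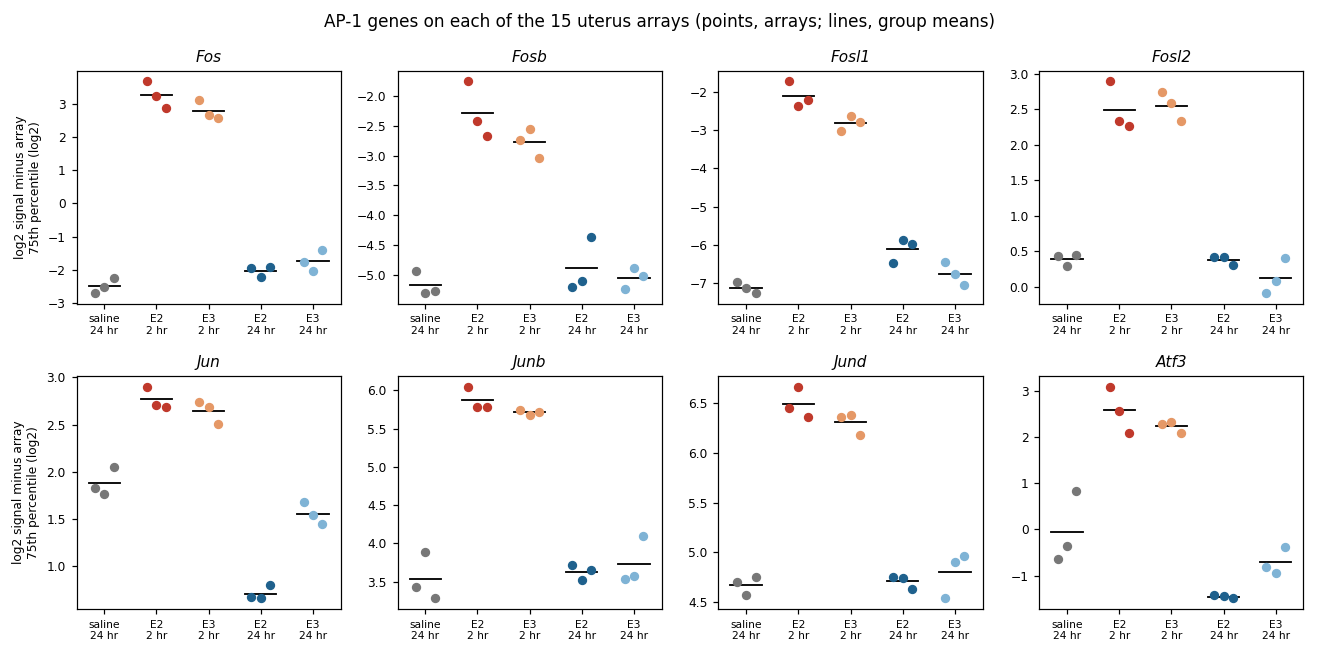
Level of each AP-1 gene on each array, as log2 signal minus the array's 75th percentile (y axis; each panel has its own range), in the 5 groups of 3 arrays (x axis). Points are arrays and lines are group means. Both 2 hr groups lie above saline in every panel, and at 24 hr Jun on E2 lies near 0.71 against 1.88 on saline.

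**Figure D2:**
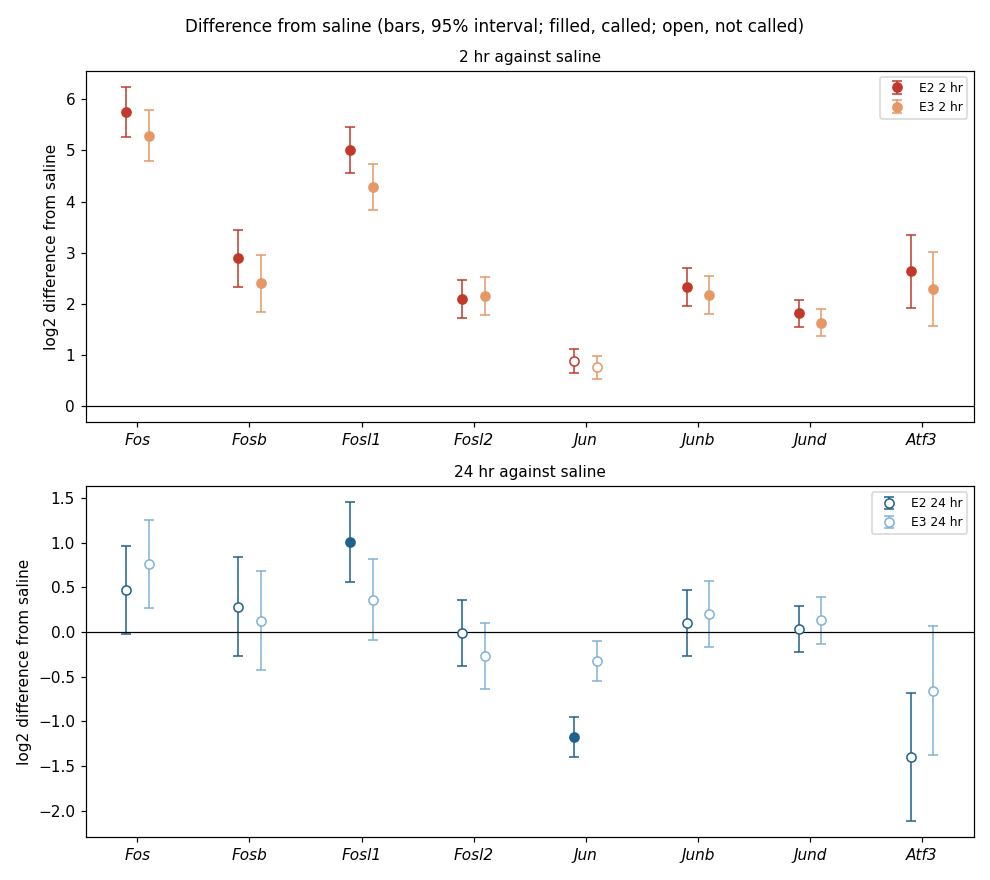
Log2 difference from saline of the 8 genes (x axis) at 2 hr (upper panel) and 24 hr (lower panel) for E2 and E3, with 95% intervals from limma. Filled points were called and open points were not. At 2 hr Jun is the gene with open points, and at 24 hr only Fosl1 and Jun on E2 are filled.

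Fos, the founding member of its family, had the widest range of any member. Its level on the 3 saline arrays was -2.70, -2.52 and -2.25. It was 3.68, 3.23 and 2.87 at 2 hr of E2. It was 3.12, 2.68 and 2.59 at 2 hr of E3. No saline array came near either 2 hr group. In limma the difference from saline was 5.75 ± 0.23 (SE), or 53.9-fold, for E2 (adjusted p = 4.16e-09) and 5.29 ± 0.23, or 39.1-fold, for E3 (adjusted p = 1.31e-08). The Fos probe is printed in 10 spots, at chr12:83478431-83478490 of mm7, the build in the array header. At 24 hr the values were -1.94, -2.22 and -1.90 on E2. They were -1.75, -2.05 and -1.40 on E3. Both 24 hr groups lay above all 3 saline arrays, by 0.47 (95% interval -0.02 to 0.96, adjusted p = 0.0896 in limma) on E2 and by 0.76 (0.27 to 1.25, adjusted p = 0.0221) on E3. Neither was called, and 8.18% of the 2 hr log2 change was left at 24 hr of E2 and 14.3% at 24 hr of E3.

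Fosb, a relative that is induced with Fos, was also called higher at 2 hr of both hormones. Saline arrays lay between -5.31 and -4.94. The 2 hr E2 arrays lay between -2.68 and -1.75 and the 2 hr E3 arrays between -3.04 and -2.55. The limma differences were 2.89 ± 0.26 for E2 and 2.40 ± 0.26 for E3, or 7.42-fold and 5.27-fold. The saline and 24 hr groups overlapped, with intervals of the 24 hr difference from -0.27 to 0.84 on E2 and from -0.43 to 0.68 on E3. With normexp background correction, Fosb at 2 hr of E3 was no longer called (1.87, adjusted p = 0.0119 in limma), and its difference at 24 hr of E3 was 0.94 in place of 0.13, also not called (adjusted p = 0.213), where the median over all probes moved from -0.01 to 0.31.

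Fosl1, which encodes Fra-1, was near the floor of the array on saline, at -6.96, -7.12 and -7.26 beside a lowest well-measured level of -8.29 to -7.77 over the arrays. At 2 hr it stood at -1.73, -2.37 and -2.22 on E2. It stood at -3.03, -2.64 and -2.79 on E3. Every E3 array was below every E2 array. The limma differences from saline were 5.01 ± 0.21 (32.2-fold) for E2 and 4.29 ± 0.21 (19.6-fold) for E3. E3 minus E2 at 2 hr was -0.72 (interval -1.17 to -0.27, adjusted p = 0.0143 in limma), which met neither the p threshold nor 2-fold and was not called. With normexp background correction the Fosl1 difference at 2 hr of E2 was 3.36, still called, and at 2 hr of E3 it was 2.69 and was not called (adjusted p = 0.00723 in limma).

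Fosl2, which encodes Fra-2, was measured by 2 probes that disagreed on the hormones. On the brighter probe the saline arrays were 0.30 to 0.45, the 2 hr E2 arrays 2.26 to 2.89 and the 2 hr E3 arrays 2.34 to 2.74. Its limma differences from saline were 2.10 ± 0.17 for E2 and 2.16 ± 0.17 for E3, and the E3 minus E2 difference was 0.06 (interval -0.31 to 0.43). On the dimmer probe the 2 hr E2 arrays were -1.80, -2.21 and -2.21. The 2 hr E3 arrays were -3.34, -3.25 and -3.25, all below E2. That probe was called lower on E3 than on E2 (log2 difference -1.21 ± 0.12, 2.31-fold, adjusted p = 1.21e-05 in limma). The probes lie at chr5:31189767-31189826 and chr5:31185231-31185290 of mm7, and the cause of their disagreement was not tested. With the mean over both probes the E3 minus E2 difference at 2 hr was -0.58. At 24 hr the brighter probe differed from saline by -0.01 on E2 and -0.27 on E3, and both groups overlapped saline. The dimmer probe differed by 0.25 and -0.19. Its arrays were -5.12, -4.98 and -4.83 on E2 and -5.46, -5.37 and -5.39 on E3, which did not overlap. E3 minus E2 was -0.43 there (interval -0.69 to -0.18, adjusted p = 0.0115 in limma), which was not called.

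**Figure D3:**
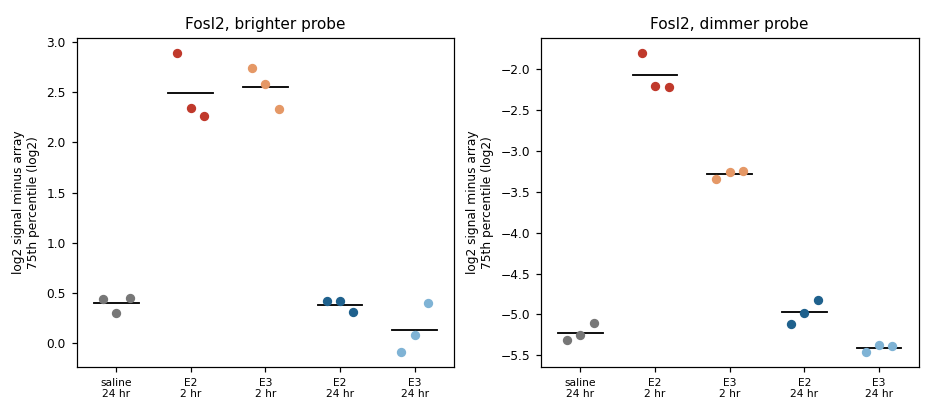
Level of Fosl2 on its brighter probe (left) and dimmer probe (right), as log2 signal minus the array's 75th percentile (y axis), in the 5 groups (x axis). Points are arrays and lines are group means. The 2 hr E2 and E3 arrays overlap on the left and are apart on the right, where their means are -2.07 and -3.28.

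Jun, the founding member of the Jun family, had the smallest differences from saline at 2 hr of the 8 members. Its levels on saline were 1.83, 1.76 and 2.05. They were 2.90, 2.70 and 2.69 at 2 hr of E2. They were 2.74, 2.68 and 2.50 at 2 hr of E3. Neither 2 hr group overlapped saline, and the differences were 0.88 ± 0.10 (1.85-fold, adjusted p = 1.34e-05 in limma) for E2 and 0.76 ± 0.10 (1.70-fold, adjusted p = 7.2e-05) for E3. Both passed the p threshold and were short of 2-fold. The probe was printed in 10 spots, whose SD on an array was at most 0.065 on the log2 scale.

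At 24 hr Jun had gone below its saline level. It was 0.67, 0.65 and 0.79 on E2. It was 1.68, 1.54 and 1.45 on E3. The 3 E2 arrays lay far below all others, while the E3 arrays lay just below the 3 saline arrays. Jun on E2 was called lower than saline (log2 difference -1.18 ± 0.10, 2.26-fold, adjusted p = 2.28e-06 in limma), and this call held in all 31 alternatives that were run. Several of these could not move the difference, such as the identical deposited table, the mean over probes and leaving out an array of another group. With the slide as a random block the difference was -1.17. The correlation within slides was estimated at -0.015 over the probes, so that block hardly changed the fit. No slide held both saline and 24 hr E2 arrays, so the block cannot separate slide from treatment. On E3 the log2 difference was -0.33 (interval -0.55 to -0.10, adjusted p = 0.0307), which was not called. The order of the Jun levels was thus E2 and E3 at 2 hr, then saline, E3 at 24 hr and E2 at 24 hr, and the 2 hr groups did not differ beyond their spread (interval of E3 minus E2 -0.35 to 0.11).

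Junb, a Jun family member that is often induced more sharply than Jun, was called higher at 2 hr of both hormones. Saline arrays lay between 3.28 and 3.89 and the 2 hr arrays between 5.78 and 6.05 on E2 and between 5.68 and 5.74 on E3. The limma differences were 2.34 ± 0.17 and 2.18 ± 0.17, or 5.05-fold and 4.52-fold. Its second probe, whose position overlaps that of the first, gave 2.48 and 2.13. At 24 hr both groups overlapped saline, with limma differences of 0.10 on E2 and 0.20 on E3.

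Jund, a Jun family member that most tissues express without a stimulus, had the smallest 2 hr change of the called members. Saline arrays were between 4.57 and 4.75 and the 2 hr E2 and E3 arrays were between 6.36 and 6.66 and between 6.18 and 6.38. The limma differences were 1.82 ± 0.12 (3.52-fold) and 1.63 ± 0.12. At 24 hr the differences were 0.04 on E2 and 0.13 on E3, with intervals that held 0.

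Atf3, whose protein often represses the genes it binds, was the most variable member on saline. Its saline values were -0.64, -0.35 and 0.83, and replicate 3 stood more than 1 log2 unit above the others. It was 3.09, 2.57 and 2.09 at 2 hr of E2. It was 2.27, 2.33 and 2.09 at 2 hr of E3. All 6 of the 2 hr arrays lay above saline, and the limma differences were 2.63 ± 0.33 (adjusted p = 2.27e-05) and 2.28 ± 0.33 (adjusted p = 0.000114). On the slide that held saline replicate 3 with the 3 E3 arrays, the Atf3 difference was 1.40, while the Fos difference was 5.05 and that of Jun 0.59. That slide holds 1 saline array, so these values rest on it. Without the 4 arrays with pancreas transcripts, Atf3 at 2 hr of E3 was 2.33, beside 2.28 with them, and not called (adjusted p = 0.0162 in limma). That left 1 array in the E3 group, assumed to vary like the other groups.

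At 24 hr Atf3 was -1.42, -1.44 and -1.49 on E2. It was -0.81, -0.95 and -0.37 on E3. The E2 arrays lay close together (SD 0.0348) and below every saline array, while the E3 arrays overlapped saline. The E2 difference from saline, -1.40 ± 0.33 (2.64-fold lower), had an adjusted p of 0.00292 in limma, and its unadjusted p of 0.00117 in limma just missed the threshold. Without saline replicate 1 it was -1.69 and was called, and it was also called without replicate 1 or 3 of E2 at 2 hr. Without saline replicate 3 it was -0.96, which is under 2-fold, and was not called. On E3 the difference was -0.66 (interval -1.38 to 0.06, adjusted p = 0.146).

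Over the members, 1 was called higher at 24 hr of E2 and 1 lower, where 6.91% of probes were called higher and 11.2% lower. These were Fosl1 and Jun. Fosl1 on E2 was -6.46, -5.88 and -5.97, a difference of 1.01 ± 0.21 from saline (2.01-fold, adjusted p = 0.0011 in limma), at the 2-fold edge and near the floor of the array. Its call was lost without saline replicate 2 or 3, without E2 replicate 2 or 3 (0.89 and 0.94) and without the 2 or the 4 arrays with pancreas transcripts (0.89 and 0.65). Leaving out the 4 left 1 array of E2 at 24 hr, assumed to vary like the other groups. With normexp background correction it was 0.37 (adjusted p = 0.782 in limma), and the call was also lost under 2 other scalings (0.96 and 0.99) and with only the groups compared in the fit. On E3 Fosl1 was -6.45, -6.76 and -7.03, which overlapped saline, a difference of 0.36 (interval -0.09 to 0.81). With normexp that difference was 1.17, not called. At 24 hr of E3 0 members were called, where 1.84% of probes were called higher and 1.98% lower. In limma 2 members on E3 had an unadjusted p under 0.05, Fos and Jun. The share of all probes under 0.05 was not counted. With no minimum change, 5534 of the 34776 probes had p below 0.001 in limma, and neither Fos nor Jun did.

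Set against 2 hr of the same hormone, all 8 members were called lower at 24 hr of E2, where 17.4% of probes were called lower. All 8 were also called lower at 24 hr of E3, where 6.48% of probes were. In the same comparisons 5 of the 8 epithelial markers were called higher on E2 and 3 on E3, and 2 of the 8 stromal markers on E2 and 6 on E3. Over all probes 13.6% were called higher on E2 and 9.63% on E3. Of the 5 heat shock genes 3 were called lower on E2 and 1 on E3. Of the 6 skeletal muscle genes 4 were called higher on E2 and 2 on E3. Of the 8 liver genes 6 were called higher on E2 and 5 lower on E3. Their part was not tested. On E2 the log2 differences ran from -1.78 for Jund to -5.28 for Fos. On E3 they ran from -1.09 for Jun to -4.53 for Fos. For Atf3 they were -4.03 on E2 and -2.94 on E3, and for Jun -2.06 and -1.09. With normexp background correction Fosb lost its call on both hormones (-2.06 on E2 and -0.92 on E3) and Fosl1 lost its call on E3 (-1.52, beside -3.93), while the median over all probes on E3 moved from 0.12 to 0.49.

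Estriol is estradiol with an added hydroxyl group, and the hormones were compared at 250 ng at 2 hr and at 24 hr. At 2 hr 0 members were called different on the brightest probe, where 1.5% of probes were called higher on E3 and 6.01% lower. In limma Fosl1 was the 1 member with an unadjusted p under 0.05, a share that was not counted over all probes. With no minimum change, 7874 of 34766 probes had p below 0.001 in limma, and Fosl1 did not. The intervals of E3 minus E2 were -0.95 to 0.03 for Fos, -1.05 to 0.06 for Fosb, -0.53 to 0.21 for Junb, -0.45 to 0.08 for Jund and -1.07 to 0.37 for Atf3. These intervals do not show that the hormones act alike. At 24 hr 0 members were called, where 2.77% of probes were called higher on E3 and 2.07% lower. In limma 3 members, Jun, Fosl1 and Atf3, had an unadjusted p under 0.05 on the brightest probe, again without a share over all probes. With no minimum change, 6494 of 34776 probes had p below 0.001 in limma, Jun among them. Jun was the largest difference there, higher on E3 by 0.85 ± 0.10 (1.80-fold, adjusted p = 0.000103 in limma), with all E3 arrays above all E2 arrays. For Atf3 the E3 minus E2 difference at 24 hr was 0.74 (interval 0.02 to 1.46, adjusted p = 0.101), and the arrays of the hormones did not overlap. For Fosl1 it was -0.64 (interval -1.09 to -0.19, adjusted p = 0.0285), and the arrays overlapped. With normexp background correction that Fosl1 difference was 0.80, of the opposite sign, and that of Fosb was 0.68 in place of -0.16, while the median over all probes moved from 0.06 to 0.44.

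**Figure D4:**
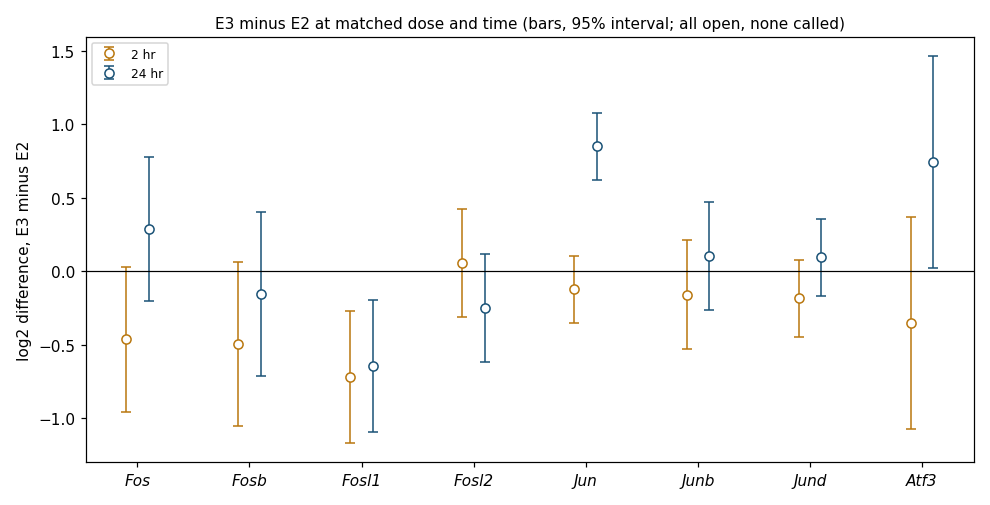
Log2 difference of E3 minus E2 for the 8 genes (x axis) at 2 hr and at 24 hr, with 95% intervals from limma. All points are open because none was called. Jun at 24 hr, at 0.85, is the highest point and the gene whose interval lies farthest from 0.

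The change of the hormone difference with time was tested in the same fit. On the brightest probes, Jun was the member whose E3 minus E2 difference moved from 2 hr to 24 hr at an adjusted p under 0.05, by 0.97 ± 0.15 (adjusted p = 0.000268 in limma), a direction that 28.9% of all probes shared at that threshold. It stayed under 2-fold. On the dimmer Fosl2 probe the change was 0.77 ± 0.16 (interval 0.42 to 1.13, adjusted p = 0.00223 in limma), also under 2-fold. For Fos the change was 0.75 (adjusted p = 0.0732) and for Atf3 1.09 (adjusted p = 0.0754). The 2 hr side of each rests on the E2 arrays of the other strain and session.

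As a description over the 15 arrays, which share group and slide, Jun and the members Fos, Fosb, Fosl1, Fosl2, Junb and Jund had Pearson correlations of 0.77 to 0.84. Those 6 members had correlations of 0.96 to 0.99 with each other. Jun and Atf3 had a correlation of 0.95, and Atf3 and the 6 other members had correlations of 0.88 to 0.94. Among 18436 genes, those most like Fos were Oxtr, the oxytocin receptor gene (r = 0.995), C030014K22Rik (0.992) and AI841794 (0.990). Those most like Jun were Sema6d, a semaphorin gene (0.991), D8Ertd587e (0.984) and Arid5a (0.980). Those most like Atf3 were Mafk, a small Maf gene (0.981), Dusp1, which encodes a phosphatase of MAP kinases (0.980), and A930038C07Rik (0.976).

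Of 14 further leucine zipper partners, 4 were called higher at 2 hr of E2, and 3 higher and 1 lower at 2 hr of E3, beside 10.7% of all probes higher on E2 and 4.68% higher and 9.1% lower on E3. Maff, a small Maf protein gene, was higher than saline by 3.26 ± 0.20 on E2 and 2.18 ± 0.20 on E3 in limma, and E3 was called lower than E2 (log2 difference -1.07, adjusted p = 0.00108). Jdp2, a Jun dimerization protein gene, was higher by 2.54 on E2 and 2.38 on E3. Atf4, a stress response factor gene, was higher by 2.44 and 2.11. At 24 hr of E2, 3 partners were called lower and 0 higher, beside 11.2% and 6.91% of all probes, and Maff was one of those lower (-1.10). Of 16 upstream kinase and factor genes tested, 4 were called higher at 2 hr of E2 and 3 at 2 hr of E3, against the same 10.7% and 4.68% of all probes. Map2k1, a kinase of the ERK pathway, was higher by 1.86 and 1.77. Mapkapk2, a kinase downstream of p38, was higher by 1.81 and 1.58, and Srf, the factor that binds the CArG box, by 1.57 and 1.40.

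Of 19 textbook AP-1 targets tested, 7 were called higher at 2 hr of each hormone and 0 lower, beside 10.7% of all probes higher on E2 and 4.68% on E3. Some targets that were not called lay below saline at 2 hr of E2. The differences were -2.09 for Spp1 (adjusted p = 0.0101 in limma), -1.95 for Mmp3 (0.00582) and -1.22 for Mmp9 (0.0135). On E3 they were -0.58, -0.37 and -0.19. Plau, the urokinase gene, was 8.64-fold higher on E2 and 2.83-fold on E3, and E3 was called lower than E2 (log2 difference -1.61, adjusted p = 6.26e-05 in limma). Timp1, a metalloproteinase inhibitor gene, was the 1 target called higher on E3 than on E2 at 2 hr (1.07, adjusted p = 0.00402 in limma), and the median of the 19 targets in that comparison was 0.41, beside -0.07 over all probes. Hbegf, an EGF receptor ligand gene, was higher by 3.01 on E2 and 2.77 on E3. Vegfa, the vascular growth factor gene, was higher by 2.76 and 2.66. At 24 hr 2 targets were called higher on E2 and 1 on E3, beside 6.91% and 1.84% of all probes.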

How the data were processed

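The authors deposited 1 scanner table per array (Agilent Feature Extraction 9.5.3.1, one-color whole mouse genome design), whose processed intensity, background-subtracted by that software, was used here. The deposited table of all samples held the same intensity values and was run as an alternative. Outlier-flagged spots (1893 values) and control spots were dropped, each spot's log2 value was set relative to the 75th percentile over all spots of its array, and spots of 1 probe were averaged. A probe was tested if some group had at least 2 arrays on which it was well above background. All 5 group means were fitted in limma 3.58.1 (R 4.3.3; 10 residual and 2.06 prior degrees of freedom), with 9 contrasts, and a call needed p below 0.001 and a 2-fold change. The 8 members, the gene lists and the tests were chosen with earlier results of these data known. Named were the members and the 3 genes most correlated with each of Fos, Jun and Atf3. In the partner, upstream and target lists the 3 genes with the largest called change at 2 hr were named. Timp1, Spp1, Mmp3 and Mmp9 were named outside that rule, and genes of the other lists were not named. The array number limits the precision. The script was tested on simulated data. Alternatives were normexp background correction (offset 50), other scalings, filters, thresholds and probe summaries, the slide or replicate number as a block, fewer groups and each array left out. Scaling by the percentile over probes, and leaving out 2 or 4 arrays with pancreas transcripts, were added after seeing the data. Promoters are RefSeq sequence of GRCm38.p6, apart from the mm7 (NCBI build 35) probe positions. Figures used matplotlib 3.10.9. The Rosetta Resolver error model of the methods could not be repeated here.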

Additional observations from a re-analysis of the deposited data

Results flagged for a closer look

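For Jun, the E3 minus E2 difference was -0.12 at 2 hr and 0.85 at 24 hr, and the change between these times was 0.9716 on the log2 scale (adjusted p = 0.000268 in limma over all probes). It was singled out because the difference between the hormones differed between the times by that test of the interaction. The 2 hr E2 arrays were of the other strain, slides and scanner session, which cannot be told apart from the treatment.
The change passed 2-fold, and so was called, without replicate 2 or 3 of E2 at 2 hr, replicate 1 of E3 at 2 hr, replicate 3 of E2 at 24 hr or replicate 3 of E3 at 24 hr, with values of 1.00 to 1.03.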

How the results depend on the processing

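In all, 31 alternatives were run, 28 planned and 3 added after seeing the data. The counts at 2 hr and of 24 hr against 2 hr stayed within 1.5 times under each of them, and no called value changed sign, though some that were not called did. The count of 2 at 24 hr of E2 became 1 with normexp background correction, with the percentile taken only over probes measured above background on every array, with no scaling, with only the groups compared in the fit, and, in the additions, without the 2 or the 4 arrays with pancreas transcripts, since Fosl1 lost its call. With single arrays left out it was 1 to 3. It was 3 with a mean signal above 100 or with adjusted p under 0.05 and 2-fold, where Atf3 was called too. With no minimum change, E3 against E2 at 24 hr gave 1 (Jun), and so did the change of that difference with time, which was 0 to 1 with single arrays left out. The 75th percentile over probes in place of spots changed no count of members. Normexp moved the median over all probes at 24 hr of E3 against saline to 0.31 and turned Fosl1 in E3 against E2 at 24 hr to 0.80. The replicate block gave 7 called members at 2 hr of E2, as without it, and changed no other count. Same-numbered arrays correlated between -0.47 and 0.55, and 5 of 15 arrays correlated best with their own number, so the numbers do not pair the samples. The calls lost with normexp were of Fosb and Fosl1, and with it the change of the E3 minus E2 difference from 2 hr to 24 hr was 1.13 for Fosb and 1.47 for Fosl1, beside 0.34 and 0.08, none of them called, while the median over all probes moved from 0.12 to 0.49.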
